A study of Mus musculus with 8 samples.

Results

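T, NK and innate lymphoid cells were taken from the 2 libraries of sorted mouse intestinal tissue as barcodes with UMIs of T cell and lymphoid genes. A UMI is a molecular tag that lets 1 captured RNA molecule be counted once. A barcode was a member when it had at least 500 detected genes and at most 20% of its UMIs from mitochondrial genes, when the UMIs of Cd3d, Cd3e, Cd3g, Nkg7 and Il7r summed to at least 3, when it had 0 UMIs of the B cell gene Cd79a, and when the macrophage genes C1qa, C1qb and C1qc summed to under 10. This gave 152 members among 8944 barcodes that passed the limits on genes and mitochondrial UMIs. The small intestine held 63 members among 2756 kept barcodes, or 2.29% (exact binomial 95% interval 1.76 to 2.92). The large intestine held 89 members among 6188, or 1.44% (1.16 to 1.77). Both libraries were sorted to enrich other cells, so these shares describe the libraries and not the tissues.

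The study asked how lymphatic vessels bear on intestinal stem cells. Digested intestine was sorted for 50000 alive cells, with enrichment of LGR5+ stem cells (50000) and of CD31+ PDPN+ LYVE1+ lymphatic endothelial cells (20000 to 25000). The small intestine and the large intestine were processed separately, each as 1 single-cell library, and both are labelled C57BL/6. Per the design text, C57BL/6 and Lgr5-eGFP-ires-CreERT2 mice on that background were used for the sorts. Age, the number of animals and the share of either genotype were not given in the sources used here. Unsorted small and large intestine of C57BL/6 mice was also profiled on Visium slides, in which each spot collects the RNA of the cells above it. Each tissue had 2 cryosections of 10 µm, which were technical duplicates. Small intestinal organoids at passage 1, grown alone or in coculture, gave 2 more single-cell libraries, 1 each.

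T cells recognise antigen through a receptor of alpha and beta or of gamma and delta chains, which signals through the CD3 proteins. Many T cells of the gut lie between epithelial cells as intraepithelial lymphocytes, among which CD8 and gamma-delta cells carrying cytotoxic granules are frequent. NK cells and innate lymphoid cells lack that receptor. They act through granules or cytokines, and many innate lymphoid cells depend on the interleukin 7 receptor, whose chain is encoded by Il7r.

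With 1 library per tissue there was no test between tissues and no p-value, and tissue and library cannot be told apart. Levels are given as CPM, a gene's UMIs per 1000000 UMIs of all genes in a set of barcodes. Differences are log2 ratios of CPM, with a count under 3 set to 3. Intervals in parentheses are exact 95% intervals for counting error only, and they do not cover differences between cells, animals or sorts. A gene is called past the fold at a log2 ratio of at least 1 in size with at least 20 UMIs in the higher set, and genes were tested against other barcodes when the members held at least 20 UMIs.

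Members held 322823 UMIs in the small and 479300 in the large intestine. Their median was 3669 UMIs and 1522 genes in the small intestine, and 3629 UMIs and 1512 genes in the large. Other kept barcodes had medians of 13337 and 22322 UMIs. The mitochondrial share of members had a median of 4.93% and 4.83%. The libraries shared 25 barcode sequences, of which 2 were kept in both and 0 were members in both.

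Members were selected on the UMIs of these markers, of Cd79a and of the C1q genes in the same barcodes, so the marker levels are a description. Cd3d, Cd3e and Cd3g encode the CD3 chains of the T cell receptor complex. Cd3g had UMIs in 52 of 63 members of the small intestine (815 CPM) and 57 of 89 of the large (528 CPM). Cd3d had UMIs in 46 members (508 CPM) and 60 members (488 CPM). For Cd3e the numbers were 44 (434 CPM) and 51 (244 CPM). Nkg7, a granule gene of cytotoxic lymphocytes, had UMIs in 25 members (362 CPM) and 54 members (613 CPM), and Il7r in 33 (297 CPM) and 55 (492 CPM). At least 1 Cd3 gene had a UMI in 53 small and 65 large intestinal members, and all 3 had one in 39 and 46.

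The 3 Cd3 genes lie together on mouse chromosome 9 and are shown here because they carry the choice of most members. In the RefSeq annotation of build GRCm38.p6, Cd3g and Cd3d run in opposite directions from starts that are 1355 bases apart, and the start of Cd3e lies 27825 bases from that of Cd3d. The 250 bases before each annotated start are given on the strand of the gene, with AGGAAG, the core bound by ETS factors, in capitals where it or its reverse complement occurs. The region of Cd3d is chr9:44981536-44981785 (plus strand), that of Cd3g is chr9:44980432-44980681 (minus strand) and that of Cd3e is chr9:45009612-45009861 (minus strand).
Cd3d: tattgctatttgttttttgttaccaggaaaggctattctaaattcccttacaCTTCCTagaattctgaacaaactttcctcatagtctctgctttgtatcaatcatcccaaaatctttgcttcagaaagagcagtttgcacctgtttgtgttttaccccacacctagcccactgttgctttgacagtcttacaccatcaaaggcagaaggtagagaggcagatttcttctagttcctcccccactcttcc
Cd3g: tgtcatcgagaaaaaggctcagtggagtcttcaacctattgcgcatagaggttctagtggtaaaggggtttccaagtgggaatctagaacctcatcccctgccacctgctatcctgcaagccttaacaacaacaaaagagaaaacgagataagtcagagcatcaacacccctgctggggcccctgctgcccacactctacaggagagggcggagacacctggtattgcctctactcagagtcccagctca
Cd3e: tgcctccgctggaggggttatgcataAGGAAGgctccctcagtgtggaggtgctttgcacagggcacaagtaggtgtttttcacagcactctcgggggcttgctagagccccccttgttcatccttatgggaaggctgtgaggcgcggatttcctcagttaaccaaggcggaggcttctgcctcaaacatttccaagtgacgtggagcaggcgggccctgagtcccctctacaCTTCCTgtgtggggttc
AGGAAG occurred 1 time before Cd3d, 2 times before Cd3e and not before Cd3g, and 29.5% of 32851 promoter windows of this length held it on either strand. TGTGGT, the core bound by RUNX factors, and the E box CAGCTG were in none of the 3 windows, against 14.0% and 13.0% of all windows. A match is a sequence and not a shown binding site.

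The label was checked with genes that the rule did not use. A T cell receptor constant gene (Trac, Trbc1, Trbc2, Trdc, Tcrg-C1, Tcrg-C2 or Tcrg-C4) had a UMI in 53 of 63 members of the small intestine and 85 of 89 of the large. Ptprc, which encodes the leukocyte surface protein CD45, had UMIs in 63 of 63 and 83 of 89. Among kept barcodes without marker UMIs that passed the limits on Cd79a and C1q, 1.53% and 2.69% had a receptor constant gene. Just outside the threshold, 2 of 8 barcodes with 2 marker UMIs had one in the small and 6 of 7 in the large intestine. Just inside, 3 of 5 and 7 of 8 barcodes with 3 marker UMIs had one, and 1 of 5 and 4 of 4 with 4 marker UMIs. Of the 5 small intestinal barcodes with 4, 3 had at least 3 UMIs of Siglech, a gene described next.

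**Figure D1:**
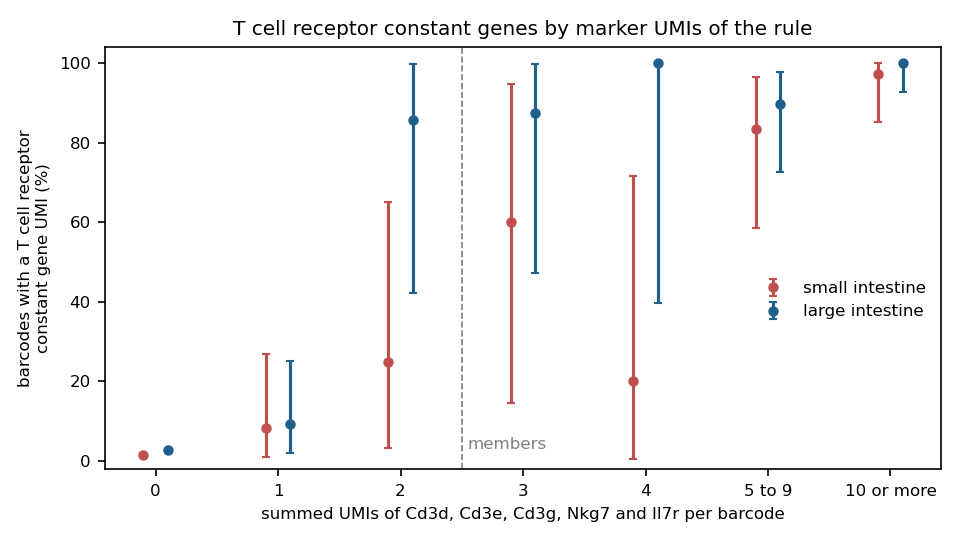
Share of kept barcodes with at least 1 UMI of a T cell receptor constant gene (y axis, percent) by the summed UMIs of the 5 markers (x axis), in barcodes with 0 Cd79a UMIs and under 10 C1q UMIs; points are shares of 1 library each and bars exact binomial 95% intervals. The share was 1.53% and 2.69% at 0 marker UMIs and 97.1% and 100% at 10 or more.

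A set of members went against the label. In the small intestine 7 members with 6764 to 8906 UMIs had at least 3 UMIs of Siglech, no Cd3 UMI and no receptor constant UMI. Siglech, Irf8, Tcf4, Ly6d and Cox6a2 are genes known from plasmacytoid dendritic cells. In these 7 members Irf8 stood at 4221 CPM (3689 to 4809), Ly6d at 3680 CPM (3184 to 4231), Siglech at 2727 CPM (2303 to 3207) and Cox6a2 at 1756 CPM (1419 to 2149). They entered through Il7r, with 34 UMIs over all 7, and they also carried 66 UMIs of Ccr9 in 6 members and 45 of Cd8b1 in 6. They held 16.6% of all UMIs of the small intestinal members. The large intestine had 1 such member, of 11022 UMIs.

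Further members carried RNA of other classes. At least 100 UMIs of the epithelial list were found in 1 small intestinal member, which with 44300 UMIs held 13.7% of its library's member UMIs, and in 6 large intestinal members, which held 33.1%. In the large intestine 1 member had 166 UMIs of macrophage genes. These members and those with Siglech are called set apart. Without them 55 members of the small and 81 of the large intestine remained. The epithelial list had 720 and 886 CPM in the remaining members, against 12108 and 11094 CPM in other kept barcodes. Plasma cell genes had 1078 and 1429 CPM over all members, against 27925 and 26508 CPM in other kept barcodes. B cell genes had 24.8 and 16.7 CPM, with 3 and 5 of 6 genes at 0, and macrophage genes 102 and 363 CPM. Neutrophil genes were at 0 in both libraries. Leaving out every member with 3 UMIs of another class left 25 and 32 members. Over these, 14 of 25 tissue ratios of named genes and the early response sum stayed within the interval of the reported value, 10 moved outside it in the same direction and 1 turned.

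Members stood far above the other kept barcodes in genes of the T cell receptor and of killer lymphocytes. Trdc, the constant gene of the delta chain, stood at 170 CPM in the small and 109 CPM in the large intestine, with log2 ratios over other barcodes of 10.34 (9.20 to 11.72) and 11.50 (10.18 to 13.18). Trbc2, a beta chain constant gene, stood at 864 CPM (log2 ratio 10.06, 9.60 to 10.56) and 785 CPM (11.46, 10.97 to 11.99). Trac, of the alpha chain, had log2 ratios of 9.77 and 7.95. Ccl5, a chemokine of effector lymphocytes, stood at 1772 CPM (1630 to 1923) and 2879 CPM (2729 to 3035), with log2 ratios of 10.48 and 11.31. It was concentrated, with 572 UMIs in 19 members and 1380 in 36.

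Across all genes, 36.6% of 2625 genes were past the fold upward in members of the small intestine and 19.5% of 3489 in the large, with median log2 ratios of 0.68 and 0.12. In the small intestine 962 genes were higher and 158 lower. Scaling by the median of gene ratios in place of total UMIs shifted all ratios by −0.67 there and left 540 higher and 391 lower, and it shifted those of the large intestine by −0.12. Because a gene entered only with at least 20 UMIs in members, genes low in members could not enter, and the counts by list are a description and not support. Of 7 receptor constant genes 6 entered in the small and 7 in the large intestine, all of them higher, with median log2 ratios of 9.94 and 11.46. Of 18 receptor signalling genes 17 entered in each library and were higher, with medians of 7.27 and 6.66. Among them Skap1, an adaptor, had log2 ratios of 8.56 and 11.24, and Lat, the adaptor that couples the receptor to signalling enzymes, had 8.28 and 8.23. The small GTPases of the Gimap family, known from lymphocyte survival, were higher at 8 of 8 genes in both libraries, with medians of 3.88 and 5.26. Of 8 naive and recirculating genes 7 entered in each library, and of 11 regulatory T cell genes 7 and 6, all of them higher. Of 11 checkpoint and costimulatory genes 5 entered in each library, and 6 had too few UMIs.

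Other killer lymphocyte genes were also far higher in members. Cd160, a receptor of intraepithelial and NK cells, had log2 ratios of 10.23 and 11.38, and the granule protease gene Ctsw had 8.47 and 9.81. Klrd1, which encodes CD94, had 7.32 and 9.40. Of 12 cytotoxic genes 6 entered in each library and the other 6 had under 20 UMIs. Of 15 intraepithelial and residency genes 15 and 14 entered and were higher, with medians of 4.63 and 4.93. The 7 Siglech members held 420 of this list's 1285 small intestinal UMIs (32.7%), with 243 of Tyrobp, 52 of Fcer1g, 45 of Cd7 and 32 of Jaml. Without the members set apart 14 of the 15 were past the fold there, with a median of 5.13.

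Some lists stood lower or held genes with few UMIs. Among the proliferation genes, 0 of 3 tested in the small and 0 of 5 in the large intestine were higher in members, and 1 and 5 were lower. Over all genes 6.02% were past the fold downward in the small and 6.59% in the large intestine. Il17a, Il17f, Il22 and Il23r, genes of type 17 lymphocytes and ILC3, had 0 UMIs in members of both libraries. Of 26 cytokine genes 7 entered in each library and were higher, among them Ccl5, Xcl1 and Ltb, the lymphotoxin beta gene. The other 19 had under 20 UMIs, among them Ifng, Il13 and Il21 with at most 10 each. Among members a count of 0 allows up to 9.29 CPM in the small and 6.26 CPM in the large intestine, which is 3 UMIs of each total.

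Within the members, coreceptor UMIs divided the libraries differently. In the small intestine 22 members had Cd4 UMIs only, 16 had Cd8a or Cd8b1 UMIs only, 4 had both and 21 neither. The large intestine had 3, 20, 0 and 66. The small intestinal split includes Siglech members, since the 6 members with Cd8 but no Cd3 UMI all had Siglech UMIs. Of the 22 with Cd4 only 21 were not set apart. Because 1 UMI can be missed at this depth, such a split is a range and not a type. Among members with a Cd3 gene, Cd4 was found in 23 of 53 and 3 of 65, Cd8 in 14 of 53 and 20 of 65, and none of Cd4, Cd8 and Trdc in 11 of 53 and 37 of 65.

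**Figure D2:**
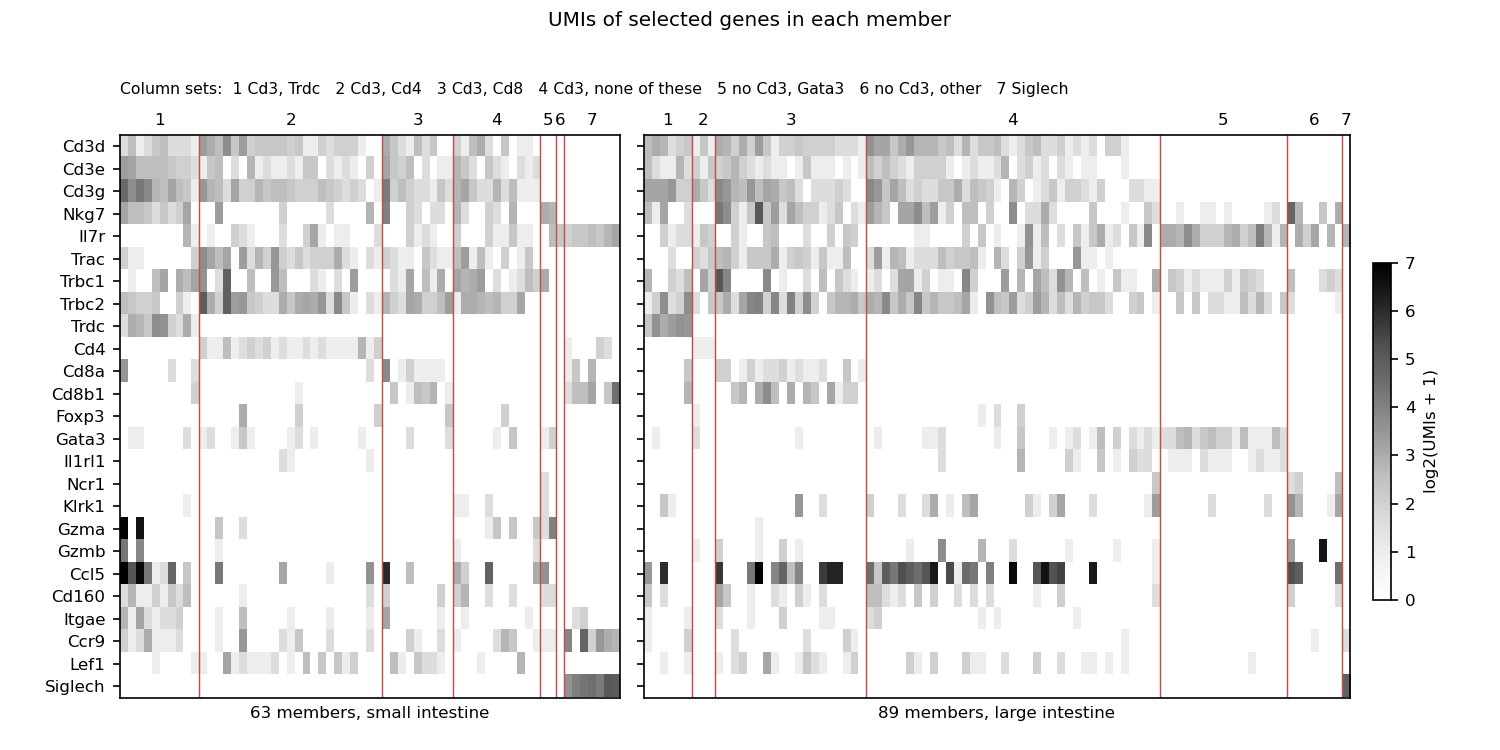
UMIs of 25 genes (rows) in each member (columns) on a log2(UMIs + 1) grey scale, for the small intestine (63 members) and the large intestine (89), with columns ordered into 7 sets by Cd3, Trdc, Cd4, Cd8, Gata3 and Siglech UMIs. The second set, Cd3 with Cd4, held 23 members in the small and 3 in the large intestine, and the fifth, Gata3 without Cd3, held 2 and 16.

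Members with only Cd4 in the small intestine carried genes of naive and recirculating T cells. Over these 22 members Lef1 had 35 UMIs in 14 (317 CPM, 221 to 441), Tcf7, a transcription factor of naive and memory T cells, had 51 in 15 (462 CPM, 344 to 608), and Ccr7, the lymph node homing receptor, had 19 in 8. Trac stood at 815 CPM (656 to 1002) there, with UMIs in 19 of 22. Ccl5 had UMIs in 3 of the 22. Over the 21 not set apart Lef1 stood at 342 CPM (238 to 475) and Tcf7 at 498 CPM (371 to 654).

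The delta chain gene Trdc had UMIs in 10 small and 6 large intestinal members. Over the 10 small intestinal members Ccl5 stood at 12747 CPM (11544 to 14041) with UMIs in 8. Of its 411 UMIs 216 came from 1 member, and without that member it stood at 6889 CPM (5956 to 7927). Cd160 stood at 775 CPM (502 to 1145) with UMIs in 9, and so did Itgae, the integrin that binds epithelial E-cadherin, with UMIs in 8. Members without Trdc in the same library stood at 554 CPM of Ccl5, 89.5 CPM of Cd160 and 86.0 CPM of Itgae. No Trdc member is set apart, and without the members set apart the others stood at 835 CPM of Ccl5 (711 to 975) and 135 CPM of Cd160. In the large intestine the 6 Trdc members stood at 2924 CPM of Ccl5 (2288 to 3683), with UMIs in 2 and 62 of the 72 UMIs in 1, against 2877 CPM without Trdc, or 4591 CPM (4342 to 4851) without Trdc and without the members set apart. Trbc2 UMIs were also present in 7 of the 10 and 6 of the 6 Trdc members, so a Trdc UMI did not mark the absence of beta chain RNA.

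CD8 members were grouped by chain. With a Cd3 gene, Cd8a without Cd8b1 was found in 6 small and 7 large intestinal members, and Cd8b1 in 8 and 13. Members with Cd8a alone stood at 11237 CPM of Ccl5 in the small and 6875 CPM in the large intestine, and Itgae at 640 CPM (379 to 1012) and 299 CPM (120 to 616). Members with Cd8b1 stood at 178 CPM (57.7 to 414) and 5439 CPM of Ccl5. Its UMIs lay in 1 of these 8 and 5 of these 13 members, with 122 of the 280 large intestinal UMIs in 1 member. The naive gene Lef1 stood at 497 CPM and 486 CPM in Cd8b1 members, against 71.1 CPM and 128 CPM with Cd8a alone, on at most 25 UMIs each. In the small intestine 2 of the 6 members with Cd8a alone were also Trdc members, among them the member with 216 Ccl5 UMIs, and the other 4 stood at 3459 CPM of Ccl5 (2716 to 4343), with 63 of 74 UMIs in 1 member, and at 467 CPM of Itgae (224 to 860). In the large intestine none of the 7 had a Trdc UMI.

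Foxp3, the factor that defines regulatory T cells, had UMIs in 5 small and 4 large intestinal members. Ctla4, an inhibitory receptor, was found in 5 of 5 and 3 of 4 of them, and Tnfrsf4, which encodes OX40, in 5 of 5 and 4 of 4. Ctla4 stood at 959 CPM and 358 CPM in these members, against 29.5 CPM and 59.8 CPM without Foxp3. Of the 4 large intestinal members 1 is set apart and held 35380 of their 44721 UMIs with none of Ctla4. Without members set apart Ctla4 stood at 959 CPM and 1713 CPM (979 to 2782) with Foxp3, against 43.4 and 79.0 CPM without it. In the small intestine 3 of the 5 had a Cd4 UMI and in the large 1 of 4.

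Members without a Cd3 gene differed in content between the libraries. There were 10 in the small intestine, 7 of which were the Siglech members, and 24 in the large. Among the 24, Gata3, a factor of type 2 lymphocytes, had UMIs in 16. These 16 members carried Il7r in all 16 (1186 CPM, 963 to 1446), Il1rl1, the interleukin 33 receptor, in 12, and Il2ra in 10. A single member set apart, with 320 epithelial UMIs, held 27730 of their 82611 UMIs, and without it Il7r stood at 1731 CPM (1400 to 2116), Il1rl1 was found in 11 of 15 and Il2ra in 9. Over the 16, Ccl5, Cd7 and Fcer1g were at 0. Il5, a type 2 cytokine, had 12 UMIs in 6 of them and Rora had 20 in 11. Members without a Cd3 UMI could enter only through Nkg7 and Il7r, so their Il7r level is a description and not support. Il1rl1, Il2ra, Il5 and Rora are known from group 2 innate lymphoid cells. Trbc1 or Trbc2 was found in 14 of the 16, and Trac in none of the 24.

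NK genes were rare. Ncr1, which encodes the NK receptor NKp46, had UMIs in 1 small and 4 large intestinal members. Over the 3 large intestinal members with Ncr1 and no Cd3 there were 10 UMIs of Ncr1, 88 of Ccl5, 38 of Nkg7, 25 of Klrk1, 23 of the chemokine gene Xcl1 and 0 of Gata3. Without Cd3 a member could enter only through Nkg7 and Il7r, so the Nkg7 UMIs are a description. Eomes, an NK factor, had 0 UMIs in members of the small intestine and 1 in the large.

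Between the tissues, small intestinal members stood higher in Gzma, Cd4, Ccr9, Cd5, Cd6 and Itgae, and large intestinal members in S100a4, Klrk1, Vim and early response genes. Of 3582 genes tested, 9.94% were past the fold toward the small and 11.7% toward the large intestine, or 356 and 419 genes. Over the members without those set apart, 215 and 179 genes were past it. The median log2 ratio, small over large, was −0.09 in members and −0.26 for the same genes in other kept barcodes. Receptor constant genes showed 0 of 7 past the fold (median 0.14), and the Gimap genes 0 of 8 (median 0.01).

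Gzma, a granule protease, had 246 UMIs in 10 members of the small intestine (762 CPM, 670 to 863) and 1 UMI in the large (2.09 CPM, 0.0528 to 11.6). From these counts the log2 ratio was 8.51 (6.02 to 13.82), and 6.93 with the large intestinal count set to 3. It rested mostly on 2 members with 119 and 91 UMIs, both with Trdc UMIs, and without these 2 the ratio was 4.19 (3.20 to 11.11) on the latter basis. Other kept barcodes stood at 0.300 and 0.391 CPM of Gzma. Its relative Gzmb leaned the other way, with 36 UMIs in 5 small and 133 in 14 large intestinal members (−1.32), of which 91 UMIs came from 1 large intestinal member and 32 of the 36 from 2 small intestinal members. When the 2 members with the most Gzmb were left out of each library, 4 and 30 UMIs remained (−2.42, −4.38 to −0.91).

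Cd4, the coreceptor of helper T cells, had 51 UMIs in 26 members of the small intestine (158 CPM, 118 to 208) and 3 UMIs in 3 members of the large (6.26 CPM, 1.29 to 18.3). The log2 ratio was 4.66 (3.03 to 6.98). Of the 3 large intestinal UMIs 2 lay in epithelial members set apart, and without those set apart 45 UMIs in 23 and 1 UMI in 1 member remained (4.32, 3.36 to 11.24, with the count of 1 set to 3). After every member was thinned to 2000 UMIs, 26.2% of 61 and 1.22% of 82 members had a Cd4 UMI, against 41.3% and 3.37% unthinned. B cell barcodes, which should lack Cd4, had 0.287% and 0.599% after thinning, at medians of 3141 and 18084 UMIs before it. Barcodes with at least 10 C1q UMIs, whose macrophages also make Cd4 RNA, stood at 93.4 CPM of Cd4 in the small and 11.9 CPM in the large intestine. In the same barcodes Ptprc stood at 922 and 111 CPM, with UMIs in 88 of 98 and 82 of 186.

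Ccr9, the receptor for the small intestinal chemokine CCL25, had 128 UMIs in 31 members of the small (397 CPM, 331 to 471) and 16 in 9 of the large intestine (33.4 CPM, 19.1 to 54.2). The ratio was 3.57 (2.82 to 4.42), 2.67 (1.79 to 3.66) without the members set apart, and 3.86 over other kept barcodes. Among the 31 members, 25 had no Siglech UMI. Itgae had 50 UMIs in 19 and 18 in 12 members, with a ratio of 2.04 (1.24 to 2.91), 1.74 (0.92 to 2.61) without the members set apart, and 1.53 in other barcodes. Other barcodes thus differed in the same direction in both genes.

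Several receptor signalling genes stood higher in the small intestine, 4 of 17 tested, against 9.94% of all genes tested. None was past the fold the other way, and the list median was 0.42. That median was 0.22 without the members set apart and 1.35 in other kept barcodes. Cd5, which dampens receptor signals, had 67 and 21 UMIs (2.24, 1.52 to 3.03), and Cd6, its relative, had 53 and 20 (1.98, 1.21 to 2.80). Fyn, a kinase downstream of the receptor, had 103 UMIs in 44 and 37 in 33 members (2.05, 1.49 to 2.63). Lat was 1.15 higher (0.63 to 1.68). Without the members set apart the ratios were 2.31 for Cd5, 1.84 for Cd6, 1.48 for Fyn and 1.11 for Lat. The naive gene Tcf7 stood at 1.32, with 84 and 50 UMIs, and at 1.25 without the members set apart.

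For Irf8, Tcf4 and Grn the difference lay largely in the members set apart. Irf8 stood 2.68 higher in the small intestine over all members and 0.22 (−1.47 to 1.88) without those set apart. Tcf4 was 2.11 and 0.80 (−0.51 to 2.14), and Grn, a growth factor precursor, was 1.93 and −0.39 (−2.61 to 1.58). Interferon genes were past the fold toward the small intestine at 4 of 8, against 9.94% of all genes tested. Their median was 0.96, or 0.62 without the members set apart. Bst2, which is in that list, had 139 of its 153 small intestinal UMIs in the 7 Siglech members.

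**Figure D3:**
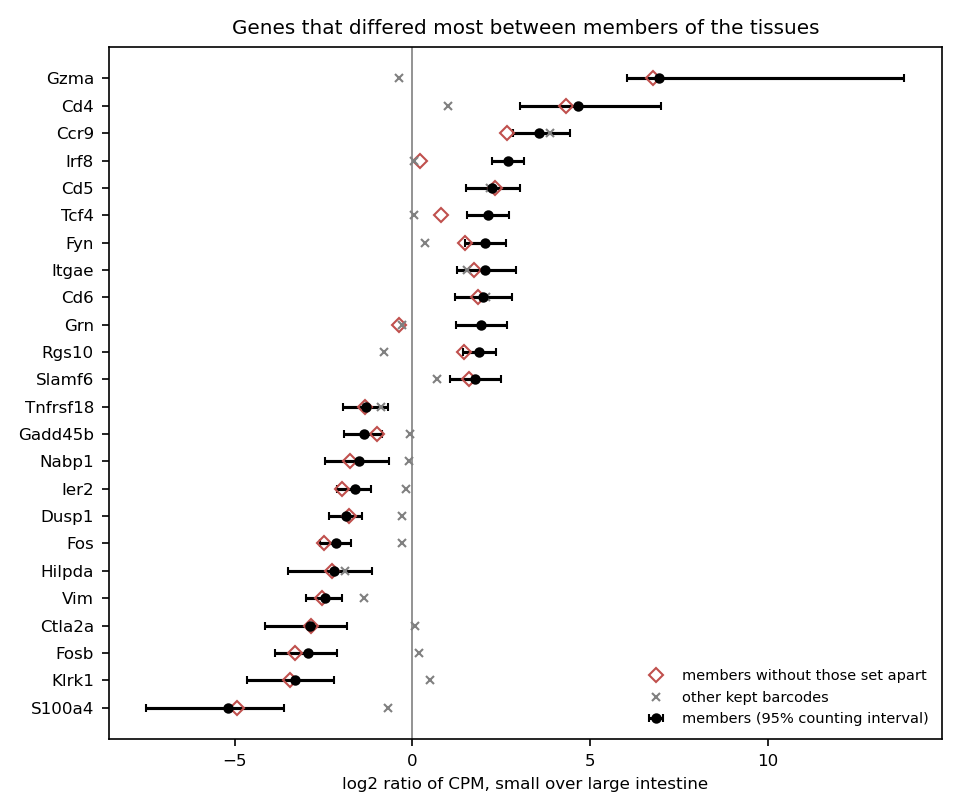
Log2 ratio of CPM, small over large intestine (x axis), of the 12 highest and 12 lowest genes by the naming rule (y axis), over all members (black, with the exact 95% counting interval), over members without those set apart (open red diamonds) and over other kept barcodes (grey crosses); Gzma is drawn with its large intestinal count of 1 set to 3. Irf8, Tcf4 and Grn lie between −0.39 and 0.80 without the members set apart.

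On the large intestinal side, S100a4, a calcium-binding protein of motile and memory T cells, had 3 UMIs in 2 members of the small and 162 in 39 of the large intestine. The ratio was −5.18 (−7.48 to −3.61), against −0.69 in other kept barcodes. In the large intestine 22 of the 39 had a Cd3 gene. Klrk1, which encodes the killer receptor NKG2D, had 7 UMIs in 5 and 102 in 24 members (−3.29, −4.65 to −2.20), and 18 of the 24 had a Cd3 gene. Vim, an intermediate filament gene, had 37 and 303 UMIs (−2.46, −3.00 to −1.97), with −1.37 in other barcodes.

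Type 2 genes leaned to the large intestine as well. Il1rl1 had 4 UMIs in 3 and 39 in 21 members (−2.72), and Areg, a growth factor of type 2 and regulatory lymphocytes, had 3 in 2 and 27 in 6 (−2.60, −4.96 to −0.90). Of these 27 Areg UMIs 13 lay in 1 member and 4 in another, and both members had Foxp3 and Cd3 UMIs. Gata3 itself had 31 UMIs in 18 and 81 in 35 (−0.82), which was not past the fold. In this list 2 of 5 tested genes were past the fold toward the large intestine and 0 toward the small, against 11.7% and 9.94% of all genes tested. The list median was −0.82 in members and −0.71 in other kept barcodes. Tnfrsf18, which encodes GITR, had 28 and 102 UMIs (−1.29, −1.95 to −0.68). Ccl5 stood at −0.70 (−0.84 to −0.56), and at −1.64 (−1.85 to −1.45) when the 2 members with the most Ccl5 were left out of each library. Cxcr6, a residency receptor, stood at −1.20.

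Early response genes are transcribed within minutes of a stimulus and include the AP-1 factors. Toward the large intestine 10 of 13 tested were past the fold and 0 toward the small, against 11.7% and 9.94% of all genes tested. Their median was −1.30, −1.29 without the members set apart, and 0.02 in other kept barcodes. Fosb, an AP-1 factor, had 13 UMIs in 10 and 147 in 39 members (−2.93, −3.87 to −2.11). Fos had 53 in 15 and 348 in 48 (−2.14, −2.59 to −1.72). Dusp1, a phosphatase that switches off MAP kinases, had 48 in 13 and 260 in 47 (−1.87, −2.34 to −1.42). Other genes past or near the fold ranged from Junb and Jund at −0.90 to the heat shock gene Hspa1b at −2.56.

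Summed over the list, small intestinal members had 2649 CPM and large intestinal members 6416 CPM. Other kept barcodes had 1658 and 1772 CPM. The sum differed within the members. With a Cd3 gene it stood at 2938 CPM (2714 to 3175, 52 members) and 5085 CPM (4790 to 5393, 60 members), and without one at 10638 CPM (3 members) and 16106 CPM (21 members), with those set apart left out of all 4 values. The small intestinal value without Cd3 rests on 3 members, the lowest of which stood at 794 CPM. Over all members, those set apart included, the sum was 2677 CPM with Cd3 (53 members) and 2528 CPM without (10 members) in the small intestine, and 4189 CPM (65) and 12376 CPM (24) in the large. Barcodes with C1q, whose Ptprc level differed as given above, stood at 9768 and 3655 CPM, and epithelial barcodes stood at 1224 and 1223 CPM.

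**Figure D4:**
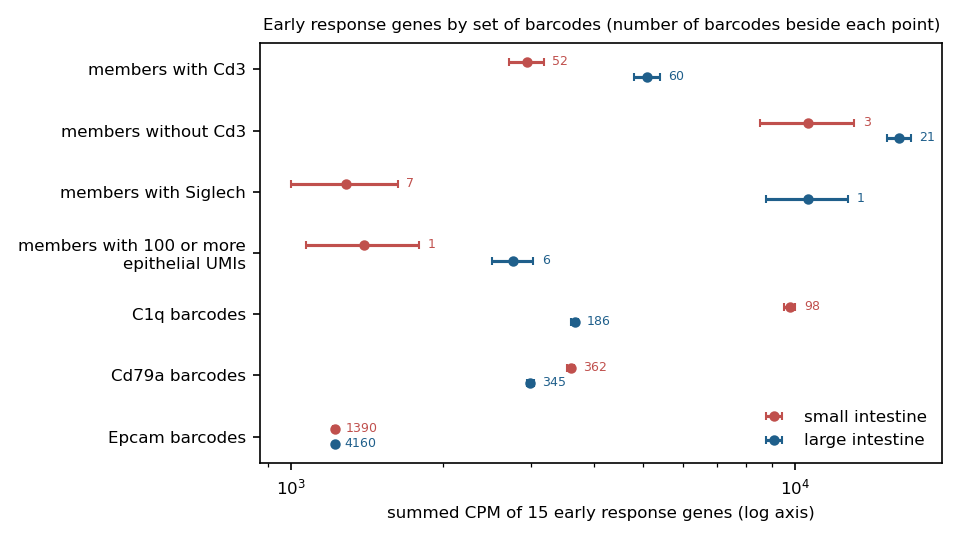
Summed CPM of 15 early response genes (x axis, log scale) in sets of barcodes (y axis) of the small and large intestine; bars are exact Poisson 95% intervals and the number beside each point counts barcodes. The first 2 sets leave out the members set apart, which have their own rows except 1 with macrophage genes; large intestinal members lie at 5085 CPM with Cd3 and 16106 CPM without.

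Promoter windows of Fosb, Fos and Dusp1 are shown, the lowest-ratio genes of this list among the 12 lowest tissue ratios of the naming rule, which Hspa1b was not among. These 3 genes all stood higher in the large intestinal members. They are the 250 bases before the annotated start on the strand of the gene (RefSeq, build GRCm38.p6), at chr7:19310046-19310295 (minus strand), chr12:85473640-85473889 (plus strand) and chr17:26508473-26508722 (minus strand). Capitals mark TGACG, the core of the cyclic AMP response element bound by CREB and ATF factors, on either strand.
Fosb: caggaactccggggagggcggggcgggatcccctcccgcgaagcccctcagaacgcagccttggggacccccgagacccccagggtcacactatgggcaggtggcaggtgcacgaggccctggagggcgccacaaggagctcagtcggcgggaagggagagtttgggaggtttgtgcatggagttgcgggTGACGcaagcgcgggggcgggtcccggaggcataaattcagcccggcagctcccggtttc
Fos: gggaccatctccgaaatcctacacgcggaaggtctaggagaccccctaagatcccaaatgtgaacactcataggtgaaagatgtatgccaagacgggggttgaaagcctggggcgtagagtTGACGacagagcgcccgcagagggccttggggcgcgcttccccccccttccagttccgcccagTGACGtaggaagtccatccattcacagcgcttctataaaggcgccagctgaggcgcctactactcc
Dusp1: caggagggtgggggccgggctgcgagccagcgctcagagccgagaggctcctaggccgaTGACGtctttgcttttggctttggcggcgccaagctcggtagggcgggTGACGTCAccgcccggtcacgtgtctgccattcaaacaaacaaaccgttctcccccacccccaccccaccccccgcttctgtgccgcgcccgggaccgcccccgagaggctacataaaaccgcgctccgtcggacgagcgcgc
TGACG occurred 1 time before Fosb, at position −60 from the start, and 2 times before Fos, at −129 and −66. Dusp1 held it at −191, −143 and, on the other strand and overlapping, −140. Of the 15 genes in the list 12 had a window, and 7 of these held TGACG in at least 1 of their windows. Of all 32851 windows 17.8% held it. That share is per window and the count of 7 is per gene, so they are not on the same basis. This says which letters are present and not which factor was bound.

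The Visium sections are independent of the barcodes the rule chose, and they hold unsorted tissue. In such bulk spots fewer cells of a type and less RNA per cell cannot be told apart. Small intestine sections had 2094 and 2571 spots with at least 500 UMIs, and large intestine sections 2094 and 2179. The 5 markers summed to 26.6 and 29.0 CPM in the small intestine sections and 19.1 and 18.8 CPM in the large, a log2 ratio of 0.55 without overlap. The markers did not move alike, with Cd3e at 1.64, Cd3g at 0.75, Il7r at 0.62, Nkg7 at 0.22 and Cd3d at −0.14. The summed receptor constant genes stood at 0.28, among which Trbc1 was −0.42. The summed receptor signalling genes stood at 86.2 and 98.2 CPM in the small and at 91.7 and 91.1 CPM in large intestine sections. These sums overlapped (0.01). Most of the 18 genes were higher in the small intestine sections, among them Cd5 at 0.96, Zap70 at 0.85 and Lcp2 at 0.71. On the other side Cd28 was −1.64, Cd2 −1.51, Ptprcap −0.78 and Thy1 −0.51. Spots with at least 1 marker UMI made up 20.2% and 19.6% in the small and 25.2% and 26.3% in the large intestine, whose spots were deeper, with medians of 19329 and 19822 UMIs against 10209 and 9039.

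Several member differences had the same direction in the sections. Gzma stood at 82.3 and 81.4 CPM in the small and at 11.3 and 11.7 CPM in the large intestine sections (2.83). Ccr9 stood at 5.34 and 4.59 CPM against 0.970 and 0.616 CPM (2.65). Itgae was 0.98 and Cd5 0.96 higher in the small intestine. Klrk1 was higher in the large intestine, at 0.657 and 0.698 CPM against 1.96 and 2.14 CPM (−1.60), and so was Xcl1 (−2.14, with −0.94 in members). None of these genes overlapped between the tissues' sections. Neither did most other lymphoid genes read in the sections, so this is a description and not support.

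Others differed from the members. The small intestine sections had 3.49 and 4.22 CPM of Cd4, against 5.09 and 3.83 CPM in those of the large (−0.21), and the values overlapped. Gzmb was 1.91 higher in the small intestine sections and 1.32 lower in small intestinal members. Ccl5, at 47.3 and 50.9 against 32.8 and 35.6 CPM, was 0.52 higher in the sections and 0.70 lower in members. Lef1 was lower in the small intestine sections, at 0.575 and 0.332 against 1.12 and 1.44 CPM (−1.49), and 0.72 higher in members. Of the 12 genes of the type 2 list 9 were higher in the small intestine sections without overlap, 1 was lower and 2 overlapped. Most of the other lymphoid genes read in the sections did not overlap either, and Il5 was among the 9 on 4 and 1 against 1 and 0 UMIs. This count is thus a description and not support. Il1rl1 reached 41.2 and 67.9 CPM in small intestine sections, against 3.27 and 3.58 CPM in those of the large intestine (3.99, against −2.72 in members), and Gata3 at 3.20 and 2.92 against 0.848 and 0.798 CPM (1.90, against −0.82). Cxcr6 was 0.48 higher in the small intestine sections. Areg had the same direction in both, at 16.4 and 17.5 against 31.0 and 33.6 CPM (−0.93). The gamma-delta gene Trdc was higher in the small intestine in both, by 1.94 in the sections, 0.65 (0.08 to 1.23) in members and 0.50 (−0.08 to 1.07) without the members set apart. Macrophages, epithelium and other cells of the sections can contribute to any of these genes.

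**Figure D5:**
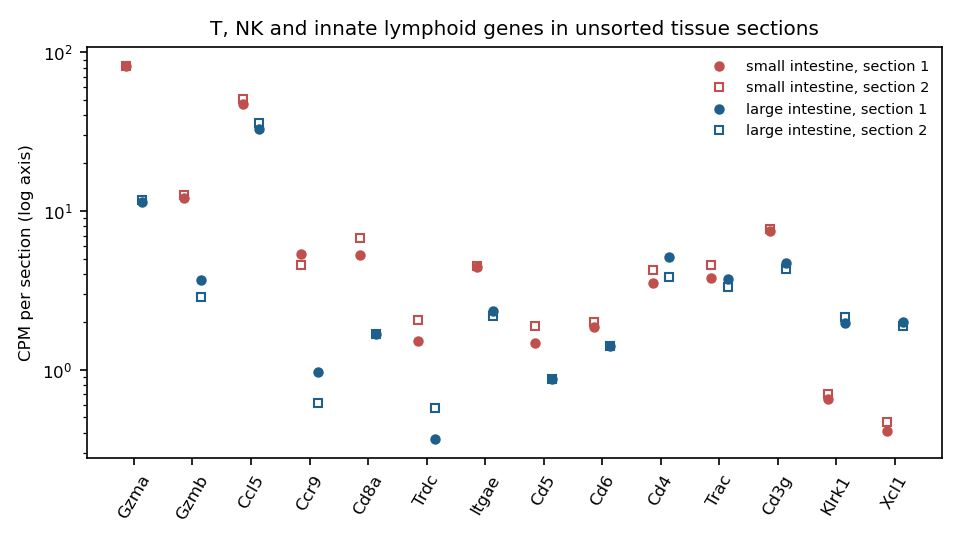
CPM of 14 genes (x axis) in each Visium section (y axis, log scale), with 2 technical duplicate sections of the small intestine (red) and 2 of the large intestine (blue). Gzma stands at 82.3 and 81.4 CPM against 11.3 and 11.7 CPM, while the Cd4 values of the tissues overlap.

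The organoid libraries hold sorted epithelial cells of cultures and not digested tissue, so they do not show the background of the rule in the tissue libraries. The rule was applied to them as well. It found 0 members among 540 kept barcodes of organoids grown alone and 0 among 1037 of cocultured ones, which, at 3 barcodes of each total, allows a share of up to 0.556% and 0.289%. Each library had 2 marker UMIs in all, and receptor constant genes had 11 UMIs in organoids grown alone and 6 in cocultured ones.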

How the data were processed

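The deposited matrices hold a count of UMIs per gene and barcode, made with Cell Ranger 6.0.1 for the single-cell and Space Ranger 1.2.1 for the Visium libraries, per the file headers; the submitters' processing notes list Cell Ranger 6.0.1 and mm10. They hold no normalization. The deposited tissue libraries had 78482770 and 142501907 UMIs. Members, gene lists and the naming rule were chosen with earlier results of these data known, so none is independent evidence.

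UMIs were summed over the barcodes of a set and scaled to CPM with Python 3.11.15 (numpy 2.4.6, scipy 1.17.1, pandas 2.3.3). Exact intervals were Poisson for a CPM, conditional Poisson for a ratio and Clopper-Pearson for a share. Counting scripts were tested on simulated data. Shares were computed after thinning to 2000 UMIs, which left out 2 and 7 members. No doublets were removed, though Scrublet (scanpy 1.11.5) was run as an alternative.

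Named genes came from 33 lists. In addition they were the 15 genes highest over other barcodes in both libraries, with at least 50 UMIs in each, and the 12 highest and 12 lowest tissue ratios. The latter needed at least 50 UMIs, a CPM at least 2 times that of other barcodes, UMIs in at least 10 members and no member with most of the UMIs. Members set apart were defined after their values were seen. Promoter windows came from RefSeq tables.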

Additional observations from a re-analysis of the deposited data

How the results depend on the processing

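Alternatives to each step kept most values within the interval of the reported one: 612 of the 722 values for single genes and sums and 90 of the 121 summary values did. Among summary values, the member share of the small intestine was 3.13% with a strict filter (1000 genes, 10% mitochondrial) and 1.50% with a loose one (300 genes, 50%). Removing members with 3 UMIs of other classes left 25 and 32 members, shares of 0.907% and 0.517%, a Cd3 share of 100% in the small intestine, 271 and 269 genes higher in members, and 63 and 102 genes higher in small and large intestinal members. Grn then stood at −0.32. Scaling by the median of ratios gave 540 genes higher in small intestinal members than in other barcodes. A minimum of 50 UMIs gave 316 and 276 genes higher in members and 88 and 143 between tissues, and a minimum of 10 UMIs gave 1690, 1128, 786 and 839. Removing the highest doublet scores took out 1 small and 7 large intestinal members and gave 221 genes higher in the large intestine.

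Alternatives chosen after seeing the data left out members set apart. Without those of 100 epithelial UMIs, 173 genes were higher in the large intestine. Without those with Siglech, the Cd3 share of the small intestine was 94.6%, Irf8 stood at −0.92 and Grn at −0.97. Without both and the macrophage member, the share was 94.5%, 215 and 179 genes were higher in either tissue, and Grn stood at −0.39. The summed early response list, −1.28 over all members, was −0.79 with Cd3 and −0.60 without.

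The thinned Cd4 share of the small intestine was 41.3% unthinned and 14.3% at 1000 UMIs. That of the large intestine, 1 member of 82, was 0 with at least 2 or at least 5 marker UMIs, without the highest doublet scores, without members of other classes and without the Siglech member. A single UMI decides this value, and the thinning was drawn again for each set of members. The Siglech member itself had 0 Cd4 UMIs. Leaving out 1 Visium section at a time gave log2 ratios of the summed markers between 0.49 and 0.61. No paired analysis was possible because no test was made on single libraries or on technical duplicates. For single genes depth sets the limit, since 3 UMIs correspond to 9.29 CPM in the small and 6.26 CPM in the large intestine.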

Other observations

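Barcodes that the rule left out differed between the libraries. In the large intestine 11 barcodes with at least 3 marker UMIs had 10 or more C1q UMIs, and 0 of these had a Cd3 or receptor constant UMI while 5 had a Cd4 UMI. In the small intestine 5 were left out in this way, of which 4 had a receptor constant UMI and 3 a Cd4 UMI. The limit on Cd79a left out 1 and 3 barcodes, all with a Cd3 gene, at up to 25638 and 32365 UMIs. Over 20% mitochondrial UMIs left out 5 and 1 barcodes with at least 3 marker UMIs, of which 4 and 1 had a receptor constant gene.

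In the large intestine 1 member without Cd3 carried 22 UMIs of Ccr7, 32 of the chemokine gene Ccl22 and 51 of Rgs1. Ccr7 and Ccl22 are known from migrating dendritic cells, and this member held 22 of the 42 large intestinal member UMIs of Ccr7. Ccl4, a chemokine of activated lymphocytes and macrophages, also lay in few members, with 97 UMIs in 6 small and 93 in 9 large intestinal members. Of these, 92 lay in 5 of the small intestinal Siglech members, and 28 and 15 in the large intestinal members with Siglech and with macrophage genes. Without the members set apart 5 UMIs in 1 and 50 in 7 members remained.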
